A study of Mus musculus with 18 samples.

Results

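The host genes of small nucleolar RNAs (snoRNAs) were followed through amino acid starvation in mouse embryonic stem cells with and without the kinase GCN2. The 9 genes were taken by symbol: Dancr, Gas5, Snhg1, Snhg3, Snhg5, Snhg6, Snhg8, Snhg12 and Zfas1. Each matched 1 row of the count tables, so they are 9 of the 55471 genes counted. The genes were chosen by earlier results of these libraries, taken here to be their changes in count between starved and unstarved cells. Those differences are therefore given as a description, with no p-value, and a gene is said to be called where its adjusted p in the edgeR fit over all genes was under 0.05.

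A snoRNA host gene makes a long RNA whose introns carry snoRNAs. After splicing, the introns are processed to snoRNAs, which guide methylation or pseudouridylation of ribosomal RNA or act in its processing. The spliced host RNA often codes for no conserved protein, and in mammals several of these RNAs begin with a terminal oligopyrimidine tract and are degraded by nonsense-mediated decay (NMD) when they are translated. GCN2, encoded by Eif2ak4, is activated by uncharged tRNA and phosphorylates eIF2α, which lowers translation initiation and raises translation of Atf4.

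The cells were of the line E14, grown with 15% serum and leukaemia inhibitory factor (LIF, 10 ng/ml). The genotypes were Eif2ak4-/- (GCN2 knock-out, named Gcn) and wild type (Wt). Cells of each genotype spent 3 h in medium without arginine (Arg), without leucine (Leu) or with all amino acids (Unstarved), in every case with 5% dialyzed serum and LIF. Each of the 6 groups held 3 libraries of poly(A) RNA, 18 in all. The labels do not say whether replicates were separate cultures or how many knock-out clones were used, so a p-value covers no more than the spread among these libraries, and that spread may be technical.

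Library totals were 14.8 to 38.8 M counts (M, 10 to the power 6), and each of the 9 genes held 82 to 7811 counts in a library. Eif2ak4 lay between 4.04 and 6.37 CPM (counts scaled to a library of 1 M) in the 9 Gcn libraries, against 27.0 to 33.4 CPM in the 9 Wt libraries. The 10 stem cell markers summed to 8092 to 9554 CPM in Gcn and 7045 to 8528 CPM in Wt libraries, with none at 0 in all libraries. The 9 fibroblast markers summed to 10.4 to 15.9 CPM in Gcn and 21.9 to 31.7 CPM in Wt libraries. The 3 Gcn libraries numbered 1 stood apart from the other Gcn libraries on the second principal component, at 22.7 to 27.8 against -17.9 to -5.97. For 8 of the 9 genes, all but Snhg5, they also held the lowest level of their group in all 3 Gcn groups. Their part in the Gcn results was not tested beyond the values given without them.

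Gas5 holds 10 annotated snoRNA genes, Snhg1 holds 8, Snhg12 holds 5, Zfas1 holds 3, Snhg3 and Snhg5 hold 2 each, and Dancr, Snhg6 and Snhg8 hold 1 each (GENCODE vM21, GRCm38). These 33 genes lie at 31 places, since some entries overlap. By sequence, 20 of the 33 (60.6%) carry box C (TGATGA) within the first 20 bases and box D (CTGA) within the last 20, the marks of methylation guides, against 309 of all 1507 annotated snoRNA genes (20.5%). Another 7 (21.2%) carry ACA 3 bases before the end, the mark of pseudouridylation guides, against 272 of 1507 (18.05%). The following snoRNAs come from the hosts on which the results turn, with the boxes or the ACA in capitals.
Snora26 in Dancr, chr5:74093530-74093650 (+ strand): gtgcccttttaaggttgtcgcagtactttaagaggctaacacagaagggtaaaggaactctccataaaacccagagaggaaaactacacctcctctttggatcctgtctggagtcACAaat
Snord50a in Snhg5, chr9:88521529-88521600 (- strand): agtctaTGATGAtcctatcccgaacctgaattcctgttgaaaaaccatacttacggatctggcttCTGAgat
Snord50b in Snhg5, chr9:88521797-88521868 (- strand): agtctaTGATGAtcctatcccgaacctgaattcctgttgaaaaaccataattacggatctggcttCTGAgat
Gm24452 in Snhg1, chr19:8724531-8724602 (+ strand): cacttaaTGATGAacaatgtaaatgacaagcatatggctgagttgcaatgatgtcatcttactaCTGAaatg
Snora61 in Snhg12, chr4:132310240-132310369 (+ strand): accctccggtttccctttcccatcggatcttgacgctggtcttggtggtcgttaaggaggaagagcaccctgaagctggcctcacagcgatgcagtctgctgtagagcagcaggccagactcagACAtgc
The pair in Snhg5 differs at 1 of 72 bases, C50A, with positions counted from the 5′ end and the base of Snord50a first. Of the 33 snoRNA genes, 29 had no count in any library. All 29 lie wholly within annotated exons of their hosts, where reads that fall on 2 genes may have been left uncounted, so the zeros give no level of the snoRNAs. Snora73b held 949 counts over the 18 libraries, Gm23201 416, Snora73a 93 and Snord87 8. Among these, Gm23201 also lies wholly within annotated exons of its host, Zfas1, so such a place did not always go with a zero.

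RefSeq (GRCm38.p6) gave 9 promoter windows for 8 of the 9 genes, each from 250 bases before to 50 after an annotated start, with no entry for Snhg6 and with 2 for Gas5. The windows below belong to Dancr, the gene with the largest fall, and to Snhg5 and Snhg1. The changes of these last 2 genes were called different between the genotypes in the main fit. CCAAT and TATAAA matches on either strand are in capitals (ATTGG and TTTATA are matches on the other strand).
Dancr promoter, chr5:74092810-74093109 (+ strand): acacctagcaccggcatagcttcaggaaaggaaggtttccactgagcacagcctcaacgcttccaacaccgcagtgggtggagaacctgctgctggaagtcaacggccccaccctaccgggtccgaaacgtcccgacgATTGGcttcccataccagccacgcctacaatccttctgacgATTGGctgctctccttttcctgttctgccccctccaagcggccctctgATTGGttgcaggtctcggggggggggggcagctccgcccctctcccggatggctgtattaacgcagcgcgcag
Snhg5 promoter, chr9:88522848-88523147 (- strand): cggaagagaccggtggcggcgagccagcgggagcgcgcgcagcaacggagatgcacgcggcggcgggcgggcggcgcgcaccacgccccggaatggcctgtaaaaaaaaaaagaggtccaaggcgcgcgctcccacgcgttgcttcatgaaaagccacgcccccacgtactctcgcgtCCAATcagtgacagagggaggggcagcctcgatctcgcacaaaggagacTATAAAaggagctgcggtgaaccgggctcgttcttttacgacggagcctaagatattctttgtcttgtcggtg
Snhg1 promoter, chr19:8723237-8723536 (+ strand): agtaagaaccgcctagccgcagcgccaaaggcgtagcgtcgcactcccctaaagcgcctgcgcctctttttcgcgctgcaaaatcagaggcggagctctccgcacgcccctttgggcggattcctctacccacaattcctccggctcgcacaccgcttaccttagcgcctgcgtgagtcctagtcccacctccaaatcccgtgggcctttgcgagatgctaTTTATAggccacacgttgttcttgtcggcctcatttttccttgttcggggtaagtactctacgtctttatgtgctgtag
Of the 9 windows, 4 held CCAAT, against 37.4% of the 32851 promoters in the table, and 4 held TATAAA, against 13.6%. None held TGATGNAA, the core of a C/EBP-ATF element, or CACGTG, an E-box, searched on both strands and present in 3.97% and 7.15% of all promoters. A run of at least 6 C or T within 10 bases of the start stood in 4 of the 9, against 20.2% of all. The 4 were Gas5 (1 of its windows), Snhg8, Snhg12 and Snhg1. These matches are letters in a window and not shown to be bound or used.

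Levels between genes were compared as CPM per kilobase, since the genes differ in length. Dancr had the lowest level of the 9 in all 6 groups, at 2.63 ± 0.48 CPM per kb of annotated exons in Gcn Arg, 4.25 ± 0.62 in Gcn Leu and 10.2 ± 1.5 in Gcn Unstarved libraries. It stood at 3.16 ± 0.15 in Wt Arg, 5.28 ± 0.61 in Wt Leu and 11.9 ± 1.2 in Wt Unstarved libraries (SD, n = 3 each). Snhg1 had the highest level in the 4 starved groups, from 35.7 ± 4.3 in Gcn Arg to 70.2 ± 9.6 CPM per kb in Wt Arg libraries. In Gcn Arg its libraries overlapped those of Gas5, the next in order, whereas in Gcn Leu, Wt Arg and Wt Leu they did not. In unstarved cells of both genotypes Snhg5 came first by annotated exon length, but Gas5 came first by the median transcript length, a measure chosen after seeing that 44 of the 81 annotated transcripts of these genes retain introns. That choice left Dancr last and Snhg1 first in the groups named above.

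**Figure D1:**
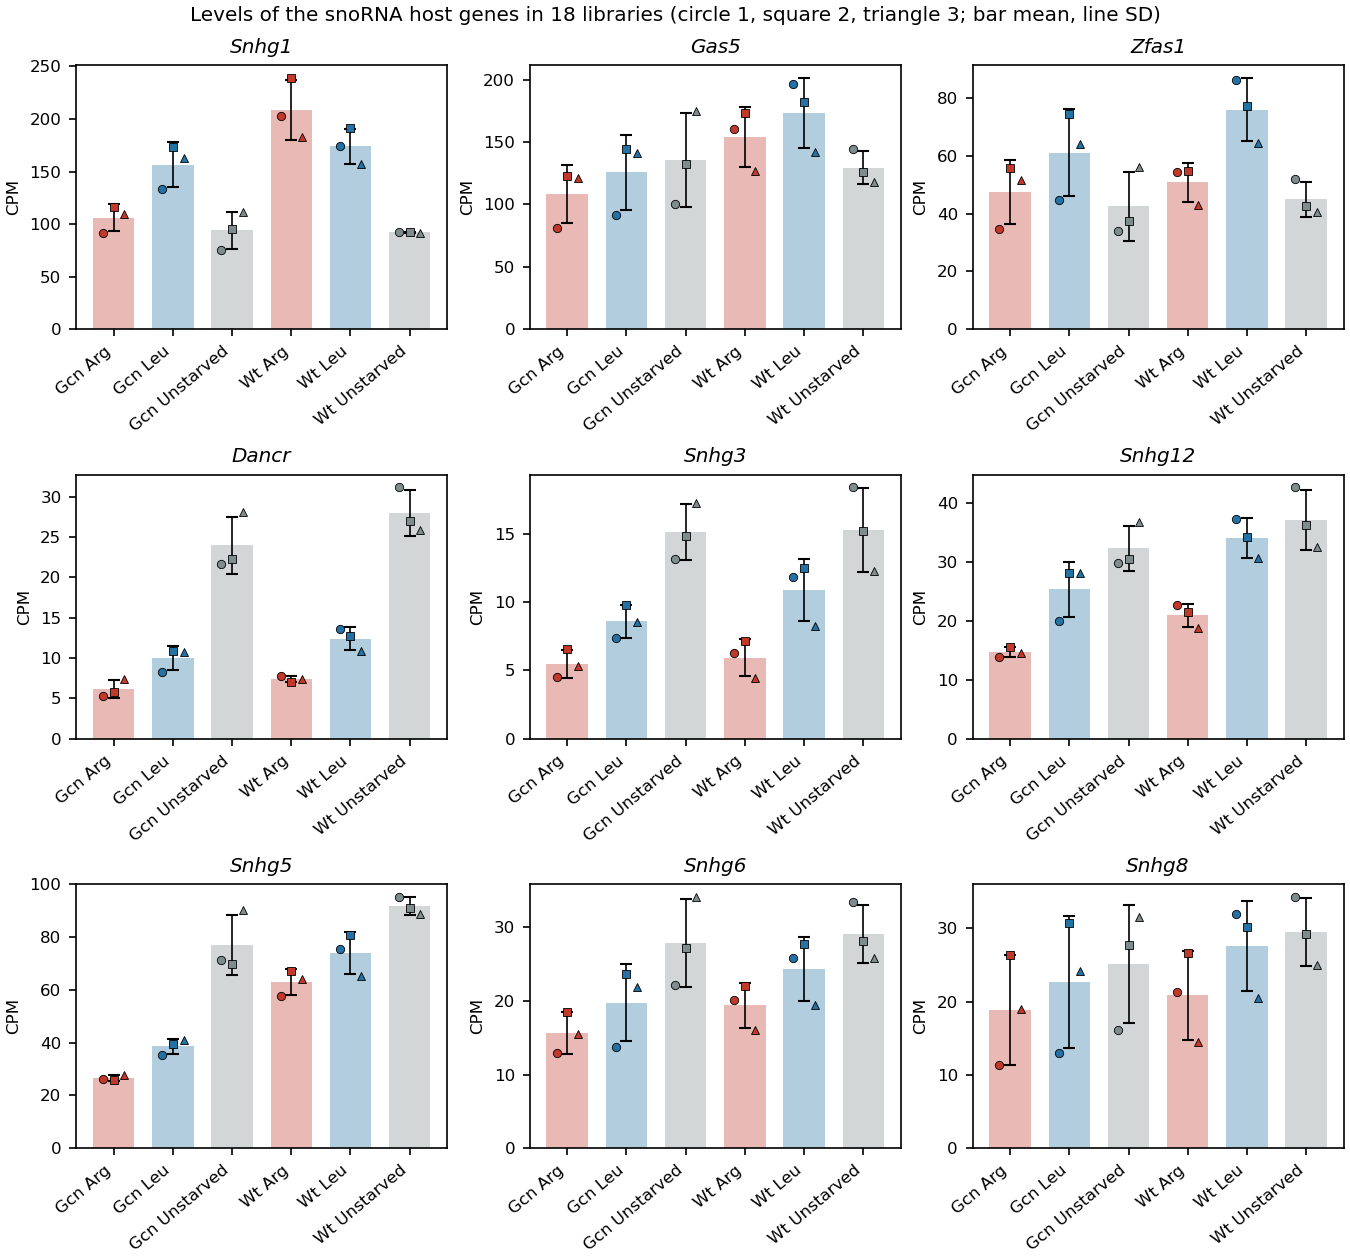
CPM of the 9 genes in 18 libraries, with a bar for the mean of a group, a line for the SD and a symbol for each library (circle number 1, square 2, triangle 3). Dancr, Snhg3 and Snhg12 are lowest in the 2 Arg groups, Snhg5 is lowest in Gcn Arg, and Snhg1 is highest in Wt Arg; each panel has its own scale.

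Dancr (ENSMUSG00000106943, chr5:74093060-74095406, + strand, GRCm38), a long non-coding RNA named in human cells for holding progenitors undifferentiated and host of Snora26, had the largest difference between starved and unstarved cells among the 9 in each of the 4 comparisons. It stood at 5.30, 5.78 and 7.45 CPM in Gcn Arg libraries and 8.29, 10.9 and 10.7 CPM in Gcn Leu libraries, against 21.6, 22.3 and 28.1 CPM in Gcn Unstarved libraries. In Wt cells it stood at 7.77, 7.07 and 7.42 CPM with Arg and 13.6, 12.8 and 10.8 CPM with Leu starvation, against 31.2, 26.9 and 25.9 CPM in Wt Unstarved libraries. No starved library of either genotype reached its unstarved group. The log2 fold change was -1.96 ± 0.16 in Gcn Arg and -1.25 ± 0.15 in Gcn Leu, and -1.92 ± 0.10 in Wt Arg and -1.18 ± 0.10 in Wt Leu (± SE here and below), and all 4 were called. In these bulk samples, fewer cells of a type and less RNA per cell cannot be told apart.

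Snhg3 (ENSMUSG00000085241, chr4:132348014-132353686, - strand, GRCm38), host of Snora73a and Snora73b, which act in the processing of ribosomal RNA, had the same order of its 6 group means as Dancr. It held 4.53, 6.58 and 5.31 CPM in Gcn Arg and 7.41, 9.82 and 8.55 CPM in Gcn Leu libraries, against 13.2, 14.9 and 17.3 CPM in Gcn Unstarved libraries. In Wt it held 6.25, 7.13 and 4.44 CPM with Arg and 11.9, 12.5 and 8.26 CPM with Leu starvation, against 18.4, 15.2 and 12.3 CPM in Unstarved libraries. Only the Wt Leu libraries overlapped their unstarved group. The log2 change was -1.45 ± 0.17 in Gcn Arg, -0.81 ± 0.15 in Gcn Leu and -1.36 ± 0.20 in Wt Arg, all called lower, and -0.49 ± 0.20 in Wt Leu, not called in this fit. Some other settings did call the Wt Leu value lower. These were DESeq2 (-0.50), no filter (-0.49) and the replicate block described below (-0.49 ± 0.09). Of its annotated exon bases 71.5% overlap Gm17300 on the other strand, which held 74 counts in all libraries together. Another overlap, of 13.7%, is with Rcc1 on the same strand, which held 114027 counts. The part of Rcc1 reads in the Snhg3 counts was not tested.

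Snhg12 (ENSMUSG00000086290, chr4:132308623-132311024, + strand, GRCm38), host of Snora16a, Snora44, Snora61 and Snord99, fell with arginine starvation. It held 13.9, 15.5 and 14.5 CPM in Gcn Arg libraries and 19.99, 28.1 and 28.0 CPM in Gcn Leu libraries, against 29.7, 30.4 and 36.7 CPM in Gcn Unstarved libraries. In Wt it held 22.6, 21.4 and 18.7 CPM with Arg and 37.2, 34.3 and 30.6 CPM with Leu starvation, against 42.6, 36.3 and 32.5 CPM in Unstarved libraries. The Arg libraries of both genotypes and the Gcn Leu libraries lay below every unstarved library of their genotype. Only the Wt Leu libraries overlapped their unstarved group. The fitted log2 change was -1.13 ± 0.14 in Gcn Arg and -0.83 ± 0.11 in Wt Arg, both called. With leucine starvation it was -0.34 ± 0.14 in Gcn and -0.13 ± 0.10 in Wt, neither called in this fit. With the replicate block described below, the Gcn Leu value was called lower.

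Snhg5 (ENSMUSG00000097195, chr9:88521050-88522929, - strand, GRCm38), host of the box C/D pair Snord50a and Snord50b printed above, was called lower in all 4 starved groups, with the 2 largest values in Gcn cells. It held 26.2, 25.8 and 27.8 CPM in Gcn Arg and 35.5, 39.5 and 41.0 CPM in Gcn Leu libraries, against 71.5, 69.7 and 90.1 CPM in Gcn Unstarved libraries. In Wt it held 57.7, 67.2 and 64.2 CPM with Arg and 75.6, 80.8 and 65.3 CPM with Leu starvation, against 95.3, 91.1 and 88.7 CPM in Unstarved libraries. Starved and unstarved libraries did not overlap in either genotype. Fits gave a log2 change of -1.53 ± 0.11 in Gcn Arg and -0.98 ± 0.11 in Gcn Leu, and -0.54 ± 0.08 in Wt Arg and -0.31 ± 0.08 in Wt Leu.

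Snhg6 (ENSMUSG00000098234, chr1:9941959-9944118, - strand, GRCm38), host of Snord87, was called lower with arginine starvation in both genotypes. Its levels were 12.9, 18.5 and 15.5 CPM in Gcn Arg and 13.8, 23.6 and 21.9 CPM in Gcn Leu libraries, against 22.2, 27.2 and 34.1 CPM in Gcn Unstarved libraries. In Wt they were 20.1, 21.95 and 16.1 CPM with Arg and 25.8, 27.8 and 19.4 CPM with Leu starvation, against 33.4, 28.1 and 25.8 CPM in Unstarved libraries. The Arg libraries of each genotype lay below its unstarved ones, and the Leu libraries overlapped them. On the log2 scale the change was -0.82 ± 0.23 in Gcn Arg and -0.58 ± 0.15 in Wt Arg, and -0.48 ± 0.22 in Gcn Leu and -0.26 ± 0.15 in Wt Leu, with neither of the Leu values called in this fit. With the replicate block described below, the Gcn Leu value and the Wt Leu value (-0.26 ± 0.08) were called lower. The Gcn Arg call was lost without Gcn Arg library 1, Gcn Arg library 3 or Gcn Unstarved library 3, where the log2 change lay between -0.82 and -0.65. Of its exon bases 11.1% overlap Mcmdc2 on the other strand, which held 232 counts in all libraries together.

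Snhg8 (ENSMUSG00000104960, chr3:123507552-123508404, - strand, GRCm38), host of Snora24, was called in none of the 4 comparisons. It held 11.3, 26.4 and 19.0 CPM in Gcn Arg and 13.0, 30.7 and 24.2 CPM in Gcn Leu libraries, against 16.1, 27.7 and 31.6 CPM in Gcn Unstarved libraries. In Wt it held 21.4, 26.6 and 14.5 CPM with Arg and 31.9, 30.2 and 20.5 CPM with Leu starvation, against 34.3, 29.2 and 24.9 CPM in Unstarved libraries. All starved groups overlapped their unstarved group. Its log2 change was -0.40 ± 0.43 and -0.14 ± 0.42 in Gcn Arg and Gcn Leu, and -0.50 ± 0.25 and -0.10 ± 0.25 in Wt Arg and Wt Leu. None was called in this fit, which does not use the pairing of the libraries. With the replicate number as a block, described below, the Gcn Arg value was called. So was the Wt Arg value (-0.51 ± 0.11). In that comparison number 2, at a correlation of 0.096, fell just short of the limit of 0.1 for pairing, which does not show that the libraries were unpaired.

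Snhg1 (ENSMUSG00000108414, chr19:8723475-8726443, + strand, GRCm38), host of 8 snoRNA genes including Snord22 and the box C/D entry Gm24452 printed above, was called higher in 3 of the 4 comparisons. It stood at 91.7, 116 and 109.7 CPM in Gcn Arg and 133, 174 and 163 CPM in Gcn Leu libraries, against 75.7, 95.1 and 111 CPM in Gcn Unstarved libraries. In Wt it stood at 202, 239 and 183 CPM with Arg and 174, 191 and 157 CPM with Leu starvation, against 92.8, 92.1 and 91.4 CPM in Unstarved libraries. Gcn Arg libraries overlapped the Gcn Unstarved ones, and the other 3 starved groups lay above theirs in every library. The change on the log2 scale was 0.75 ± 0.15 in Gcn Leu, 1.18 ± 0.09 in Wt Arg and 0.92 ± 0.09 in Wt Leu, all called higher, and 0.18 ± 0.15 in Gcn Arg, not called.

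Zfas1 (ENSMUSG00000074578, chr2:167062934-167065862, + strand, GRCm38), antisense to the start of Znfx1 and host of Snord12 and of 2 snoRNA genes without a name beyond their Gm numbers, was called higher with leucine starvation in Wt cells. It held 34.8, 56.0 and 51.7 CPM in Gcn Arg and 44.9, 74.4 and 64.2 CPM in Gcn Leu libraries, against 34.0, 37.6 and 56.2 CPM in Gcn Unstarved libraries. In Wt it held 54.6, 54.8 and 43.1 CPM with Arg and 86.5, 77.2 and 64.6 CPM with Leu starvation, against 52.0, 42.8 and 40.4 CPM in Unstarved libraries. Only the Wt Leu libraries stood clear of their unstarved group. Its fitted log2 change was 0.75 ± 0.13 in Wt Leu, called higher. It was 0.17 ± 0.26 in Gcn Arg, 0.53 ± 0.26 in Gcn Leu and 0.17 ± 0.13 in Wt Arg, none of them called in this fit. With the replicate block described below, the Gcn Leu value and the Wt Arg value (0.18 ± 0.06) were called higher.

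Gas5 (ENSMUSG00000053332, chr1:161034422-161038539, + strand, GRCm38), first described as a transcript that accumulates in growth-arrested mouse cells and host of 10 snoRNA genes, was not called in any of the 4 comparisons. It stood at 81.3, 123 and 121 CPM in Gcn Arg and 91.2, 144 and 141 CPM in Gcn Leu libraries, against 99.996, 132 and 175 CPM in Gcn Unstarved libraries. In Wt it stood at 160.4, 174 and 127 CPM with Arg and 196, 182 and 142 CPM with Leu starvation, against 144, 126 and 118 CPM in Unstarved libraries. The groups overlapped in each comparison. The log2 values were -0.31 ± 0.26 in Gcn Arg and -0.10 ± 0.26 in Gcn Leu, and 0.25 ± 0.15 in Wt Arg and 0.42 ± 0.15 in Wt Leu. Some other settings did call Gas5. Wt Leu was called higher by DESeq2 (0.42), by library size alone (0.44), without a filter (0.42) and with the replicate block (0.41). With the block Wt Arg was also called higher (0.24), and Gcn Arg lower. In these Wt comparisons number 2 fell short of the limit of 0.1 for pairing given below, at 0.096 in Wt Arg and 0.049 in Wt Leu. That does not show that the libraries were unpaired, and each Wt library correlated best with its own number in 18 of 18 cases.

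Counted over the 9 genes, 5 were called in Gcn Arg against Gcn Unstarved, all lower, where 28.0% of the 16369 genes tested were called (14.3% higher and 13.7% lower). In Gcn Leu against Gcn Unstarved 4 were called, 1 higher and 3 lower, against 21.8% of genes (11.7% higher and 10.0% lower). In Wt Arg against Wt Unstarved 6 were called, 1 higher and 5 lower, against 40.9% of the 16140 genes tested (20.9% higher and 20.0% lower), and in Wt Leu 4, 2 in each direction, against 29.6% (15.5% higher and 14.1% lower). The median log2 change of the 9 was -0.82 in Gcn Arg, -0.34 in Gcn Leu, -0.54 in Wt Arg and -0.13 in Wt Leu, beside -0.01, 0.00, -0.01 and 0.01 over all genes. Nothing is read from these counts, since these contrasts were known when the genes were chosen. Summed over the 9, levels were 349 ± 59 CPM in Gcn Arg, 468 ± 89 in Gcn Leu and 474 ± 99 in Gcn Unstarved libraries, and 550 ± 70 in Wt Arg, 607 ± 76 in Wt Leu and 497 ± 43 in Wt Unstarved libraries (SD, n = 3 each).

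The replicate numbers paired the Gcn libraries, whose deviations from their group means moved together. With the number as a block, 8 of the 9 genes were called in Gcn Arg against Gcn Unstarved, adding Gas5 (-0.31), Snhg1 (0.19) and Snhg8 (-0.41). In Gcn Leu against Gcn Unstarved 7 were called, adding Snhg6 (-0.49), Snhg12 (-0.34) and Zfas1 (0.53). Without the 3 Gcn libraries numbered 1 and with the block, a setting chosen after seeing the data, 6 were called in each of the 2 comparisons. Within a number, Gas5 was at 0.69 to 0.93 and Snhg8 at 0.60 to 0.95 of the unstarved level in Gcn Arg, lower in 3 of 3 pairs, while Snhg1 was lower in 1 and higher in 2 of 3 pairs.

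**Figure D2:**
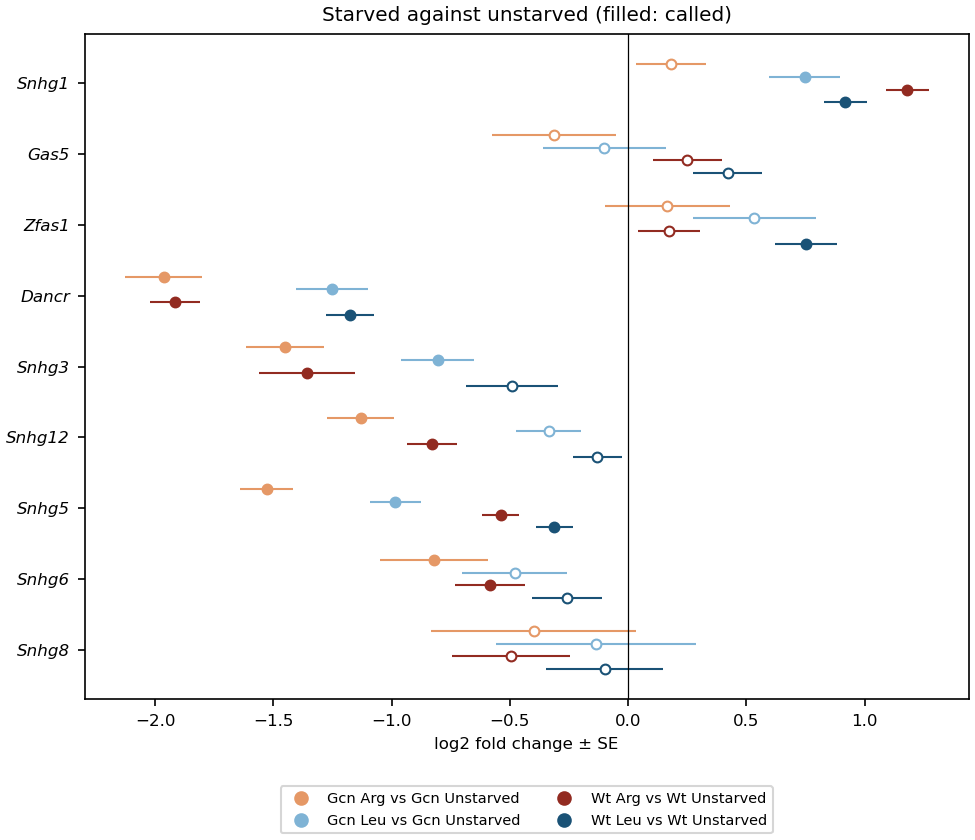
log2 fold change of each gene in each starved group against the unstarved group of its genotype, with a line for ± SE and filled points where the gene was called in the fit over all genes. Dancr lies between -1.96 and -1.18 in all 4, Snhg5 lies further left in both Gcn comparisons than in the Wt ones, and Snhg1 lies between 0.18 and 1.18.

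Leucine was set against arginine starvation to ask how the same genes differed between the 2 amino acids. This contrast is the difference of 2 changes that are taken here to have chosen the genes. Its values are therefore given as a description, with no p-value, and are no independent support. Dancr, Snhg3 and Snhg12 were higher with leucine than with arginine starvation in both genotypes. In Gcn cells Dancr differed by 0.71 ± 0.17, Snhg12 by 0.80 ± 0.14, Snhg3 by 0.65 ± 0.17, Snhg5 by 0.54 ± 0.11 and Snhg1 by 0.56 ± 0.15. In every one of these the 3 Leu libraries lay above the 3 Arg libraries. That made 5 of 9 genes called, all higher, against 8.52% of all genes (4.64% higher and 3.88% lower).

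In Wt cells Dancr differed by 0.74 ± 0.11, Snhg12 by 0.70 ± 0.11, Snhg3 by 0.87 ± 0.21 and Zfas1 by 0.58 ± 0.13. Thus 4 of 9 were called, all higher, against 10.0% of genes (5.25% higher and 4.76% lower). Snhg1 was at -0.26 ± 0.09 in Wt, lower with Leu in 3 of 3 pairs but not called, whereas it was called higher in Gcn. That difference between the genotypes in the Leu against Arg contrast was not tested. Replicate numbers paired the libraries in both of these comparisons. With the block, 7 genes were called in Gcn, adding Gas5 at 0.20 and Snhg6 at 0.31. In Wt 8 were called, adding Snhg1 at -0.26, Snhg5 at 0.22, Snhg6 at 0.33 and Snhg8 at 0.40.

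The Leu against Arg calls of Dancr, Snhg1 and Snhg3 in Gcn cells could each be lost by leaving out 1 library. Without Gcn Arg library 1 all 3 calls were lost, likewise without Gcn Leu library 3. Without Gcn Leu library 2 they were lost too. Leaving out Gcn Arg library 2 ended the call of Dancr, and leaving out Gcn Arg library 3 those of Snhg1 and Snhg3. The call of Snhg3 in Wt was lost without Wt Arg library 1 or 3 or Wt Leu library 1 or 2. That of Zfas1 in Wt was lost without Wt Leu library 2 and with all 18 libraries in the fit.

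Between unstarved cells of the 2 genotypes, Snhg5 was called lower in Gcn, with a log2 fold change of -0.25 ± 0.10 (edgeR adjusted p = 0.0490, all 18 libraries in the fit), although the highest of the 3 Gcn libraries, 90.1 CPM, lay above the lowest of the 3 Wt libraries, 88.7 CPM. It was the 1 gene of 9 called, against 32.8% of the 16924 genes tested (16.2% lower), and the call was lost without the Gcn libraries numbered 1 (-0.21, adjusted p = 0.117). It was also lost without any 1 of the 3 Wt Unstarved libraries, without Gcn Unstarved library 1 or 2, by DESeq2 and with only the 2 unstarved groups in the fit (adjusted p up to 0.205 over these). Dancr was at -0.22 ± 0.13 (adjusted p = 0.187) and Snhg12 at -0.20 ± 0.12 (adjusted p = 0.229). The other 6 genes lay between -0.23 and 0.07, each within 1 SE of 0, and Gcn and Wt libraries overlapped for all 9. Since the genes were chosen with results of these libraries known, the p-values given here are not independent support.

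The change with starvation was then compared between the genotypes by an interaction term, the Gcn change minus the Wt change, fitted with edgeR over all 18 libraries. The term is the difference of 2 changes that are taken here to have chosen the genes, so its values are given as a description, with no p-value. For arginine, Snhg1 differed by -1.01 ± 0.18: it was 1.13-fold of the unstarved level in Gcn and 2.27-fold in Wt. Snhg5 differed by -0.996 ± 0.139: it was 2.88-fold lower in Gcn and 1.45-fold lower in Wt. These were 2 of 9 called, both lower, against 2.30% of all genes called (1.68% lower). Without the 3 Gcn libraries numbered 1 the values were -1.03 for Snhg1 and -1.02 for Snhg5, both called. For leucine, Snhg5 differed by -0.68 ± 0.14, the 1 gene of 9 called, against 0.821% of all genes (0.668% lower). This call was lost without Wt Leu library 2. The genotypes also differed in the sums of the fibroblast markers given above and in Gm42418, a gene that overlaps ribosomal RNA sequence, which took 0.813 to 3.97% of counts in Gcn and 0.224 to 1.39% in Wt libraries. The part of either in these differences was not tested.

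Dancr, whose change was the largest, differed between the genotypes by -0.06 ± 0.19 for arginine and -0.09 ± 0.18 for leucine, neither called. Snhg1 differed by -0.18 ± 0.18 for leucine, not called. Gas5 differed by -0.57 ± 0.33 for arginine and -0.53 ± 0.32 for leucine, neither called. Snhg3, Snhg6, Snhg8, Snhg12 and Zfas1 lay between -0.33 and 0.09 in the 2 terms, with SE of 0.18 to 0.53, none called. A value within its error does not show that the genotypes act alike.

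**Figure D3:**
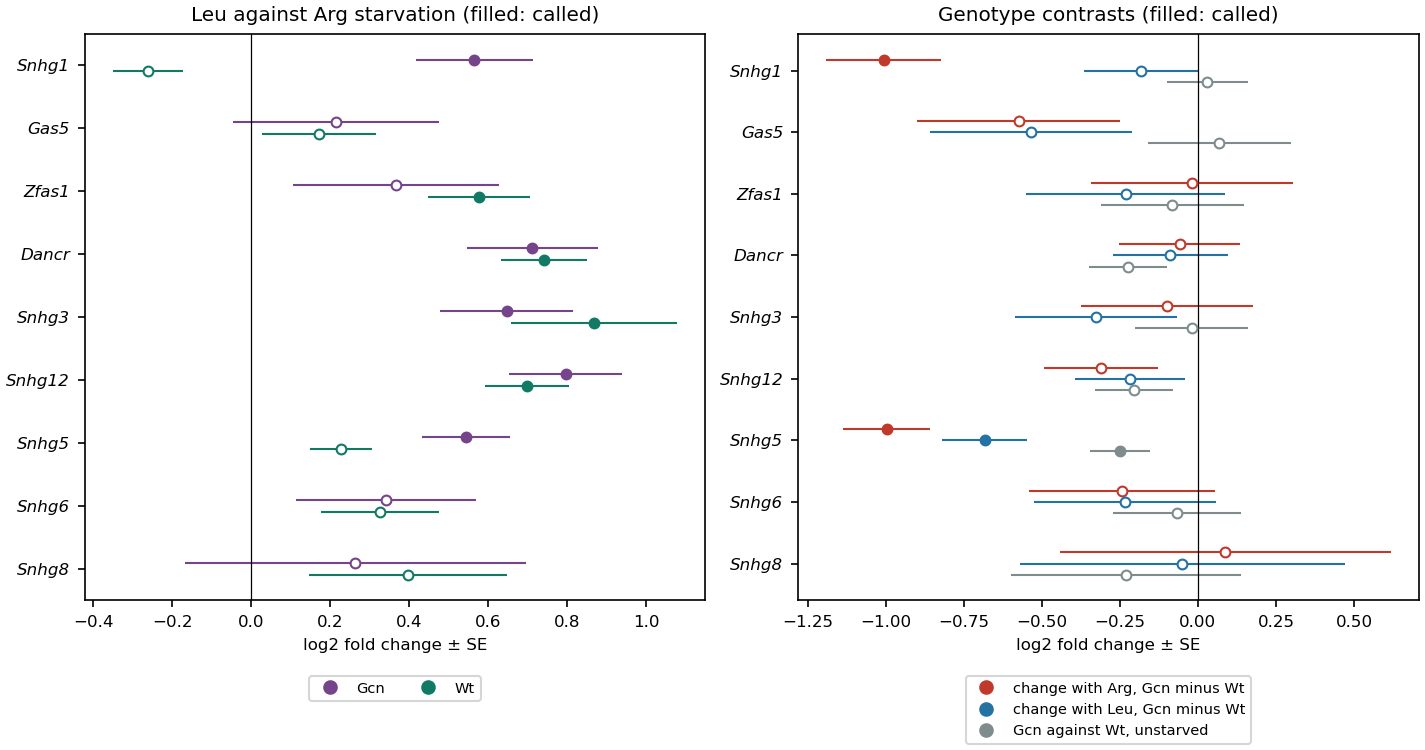
Left, log2 fold change of Leu against Arg starvation in Gcn and Wt cells; right, Gcn minus Wt change with Arg or Leu starvation and Gcn against Wt in unstarved cells, with lines for ± SE and filled points for called genes. On the left Snhg1 lies at 0.56 in Gcn and -0.26 in Wt, and on the right Snhg1 and Snhg5 lie near -1 for Arg.

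The 9 genes varied with each other to different degrees. Over the 18 libraries, which share genotype, treatment and scaling, Pearson's r of log2 CPM in the 36 pairs was between -0.51 (Dancr with Snhg1) and 0.93 (Dancr with Snhg3), with a median of 0.59. Dancr also had r of 0.86 with Snhg12, 0.83 with Snhg6 and 0.79 with Snhg5. Zfas1 had r of 0.77 with Gas5 and 0.68 with Snhg1, and -0.13 with Dancr.

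Of 12 other non-coding hosts listed, 10 matched a row. In Gcn Arg 2 of the 10 were called, both lower, and in Gcn Leu 1, lower, beside 28.0% and 21.8% of all genes. In Wt Arg and in Wt Leu 5 were called each time, 1 higher and 4 lower, beside 40.9% and 29.6% of all genes. Snhg9 had the largest called fall in Wt, at -1.94 ± 0.32 in Arg and -1.03 ± 0.29 in Leu, but its level was low, at 0.26 CPM in Wt Arg and 0.50 CPM in Wt Leu libraries, against 1.04 CPM in Wt Unstarved libraries. Snhg20 had the largest called fall in Gcn Arg (-0.73 ± 0.19) and Snhg11 in Gcn Leu (-0.52 ± 0.16). Snhg17 was the 1 gene of the list called higher, 0.42 ± 0.07 in Wt Arg and 0.24 ± 0.07 in Wt Leu. The medians were -0.48, -0.41, -0.36 and -0.12 in Gcn Arg, Gcn Leu, Wt Arg and Wt Leu.

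Of 25 protein-coding genes that carry snoRNAs in their introns, the fits called 5 in Gcn Arg, all lower, 6 in Gcn Leu (2 higher, 4 lower), 10 in Wt Arg (3 higher, 7 lower) and 7 in Wt Leu (2 higher, 5 lower). These counts are near the shares of all genes called in the same comparisons (28.0%, 21.8%, 40.9% and 29.6%), and in Gcn Arg they ranged from 3 to 19 over the alternative settings. Their medians lay between -0.24 and -0.10. Eif4a2, a translation initiation helicase, had the largest rise in both Leu groups, 0.53 ± 0.12 in Gcn and 0.49 ± 0.06 in Wt. Nop56, a core snoRNP protein, had it in Wt Arg (0.29 ± 0.06). Hspa8, a chaperone, had the largest called fall in Gcn Arg (-0.50 ± 0.08) and Wt Leu (-0.65 ± 0.06), Wdr43 in Gcn Leu (-0.51 ± 0.11) and the ribosomal protein gene Rpl7a in Wt Arg (-0.31 ± 0.08).

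Proteins that bind snoRNAs or assemble with them made a list of 17 genes, of which Nop56, Nop58 and Dkc1 are also in the list of protein-coding hosts. The fits called 5 in Gcn Arg, all lower, 5 in Gcn Leu (1 higher, 4 lower), 13 in Wt Arg (2 higher, 11 lower) and 9 in Wt Leu (1 higher, 8 lower), beside 28.0%, 21.8%, 40.9% and 29.6% of all genes. Over the alternative settings these counts ranged from 3 to 12 in Gcn Arg and from 6 to 14 in Wt Arg. Rrp9, a protein of the U3 particle, fell most in each, with -0.68 ± 0.09 in Gcn Arg, -1.51 ± 0.09 in Gcn Leu, -0.54 ± 0.06 in Wt Arg and -0.87 ± 0.06 in Wt Leu. Nop56 was the largest rise where any was called. Medians lay between -0.22 and -0.11. For leucine the change of Rrp9 differed between the genotypes by -0.65 ± 0.10 and that of Znhit3 by 0.46 ± 0.11, both called.

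Of 14 genes of the NMD machinery, 5 were called in Gcn Arg (2 higher, 3 lower), 4 in Gcn Leu (3 higher, 1 lower), 8 in Wt Arg (3 higher, 5 lower) and 7 in Wt Leu (4 higher, 3 lower), beside 28.0%, 21.8%, 40.9% and 29.6% of all genes. Smg9 had the largest rise each time, 0.83 ± 0.10 in Gcn Arg and 0.78 ± 0.10 in Gcn Leu, and 0.37 ± 0.07 in Wt Arg and 0.38 ± 0.08 in Wt Leu. Smg8 had the largest called fall in Gcn Arg (-0.65 ± 0.09), Gcn Leu (-0.33 ± 0.09) and Wt Leu (-0.34 ± 0.06), and Rbm8a in Wt Arg (-0.71 ± 0.05). Medians lay between -0.04 and 0.04.

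**Figure D4:**
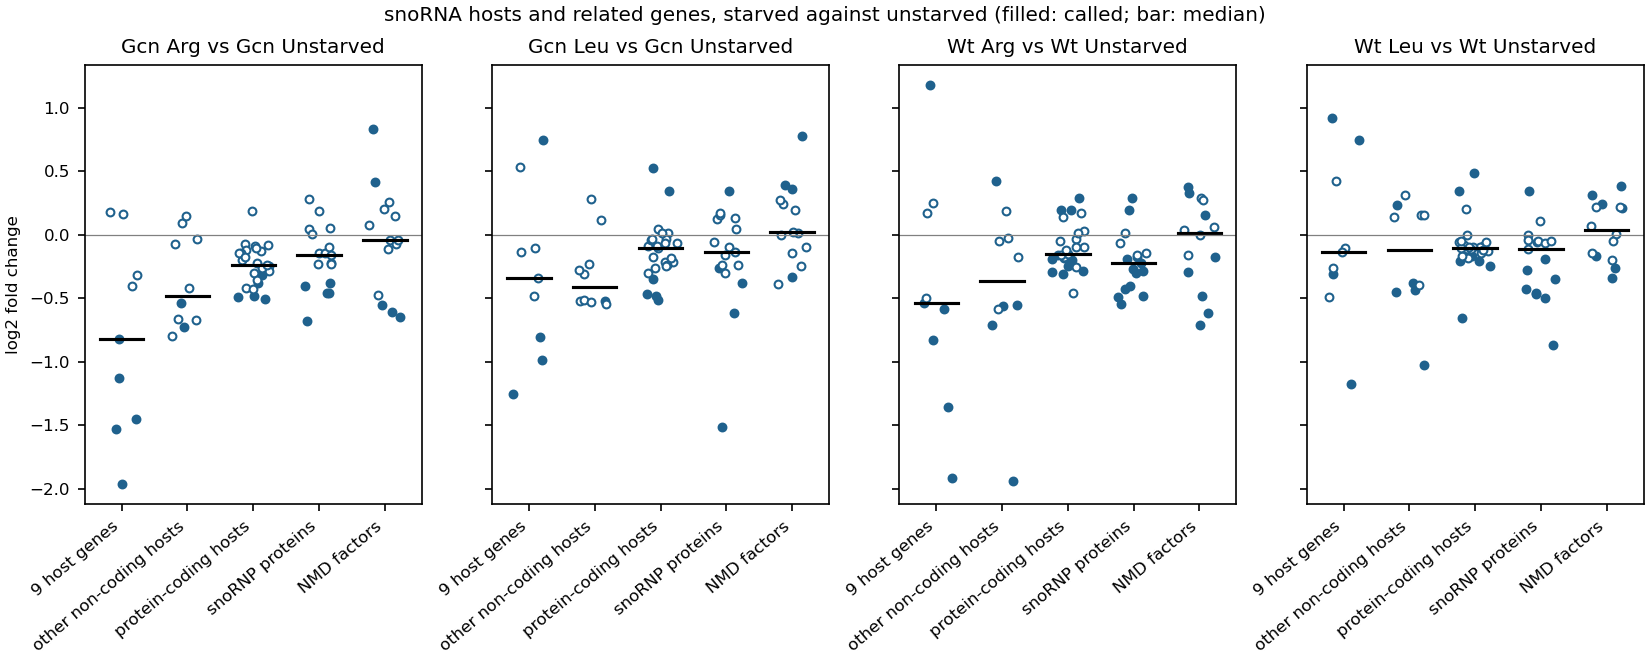
log2 fold change against unstarved cells of the 9 host genes, other non-coding hosts, protein-coding hosts, snoRNP proteins and NMD factors, 1 point a gene, filled where called, with a bar at the median of each list. The 9 genes span -1.96 to 1.18, and the medians of the protein-coding hosts lie between -0.24 and -0.10.

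Genes next to the hosts did not follow them in every case. Slc3a2, an amino acid transporter subunit next to Snhg1, had 0.31 ± 0.09 in Gcn Arg and 0.70 ± 0.07 and 0.75 ± 0.07 in Wt Arg and Wt Leu, all called higher, and 0.03 ± 0.09 in Gcn Leu, where Snhg1 was called higher. Its change with leucine differed between the genotypes by -0.73 ± 0.11, which was called, whereas the term of Snhg1 was called for arginine. Usp46, next to Dancr, was called lower in all 4, from -0.62 ± 0.10 in Gcn Arg to -0.38 ± 0.09 in Wt Leu, less than Dancr in each. Rcc1, which shares 135 exon bases with Snhg3, was called lower in Gcn Leu (-0.36 ± 0.09), Wt Arg (-0.33 ± 0.06) and Wt Leu (-0.47 ± 0.06). Trnau1ap, next to Snhg12, was called lower in 1 of the 4, Wt Arg (-0.23 ± 0.09). Znfx1, across from Zfas1 on the other strand, lay between -0.07 and 0.02 and Zbtb37, next to Gas5, between -0.23 and 0.24, neither called in any of the 4. The kit kept strand, but the strand setting of the counting is not given in the sources used here, so reads of overlapping genes on opposite strands may not be told apart.

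Among the 16814 other genes compared, AC121821.1 had the pattern most like that of Dancr over the 18 libraries (r = 0.98). It averaged 3.77 CPM in Gcn Arg and 5.89 CPM in Gcn Leu libraries, against 15.0 CPM in Gcn Unstarved libraries, and 4.55 CPM in Wt Arg and 7.97 CPM in Wt Leu libraries, against 15.5 CPM in Wt Unstarved libraries. Next came Pou4f2 (0.96), Nom1 (0.96), Chrna9 (0.96) and Hpdl (0.96). Most like the mean of the 9 were Vamp4 (0.96), 1110038B12Rik (0.95), Ssbp1 (0.95), Cst3 (0.91) and Ppa1 (0.91). AC121821.1 is a non-coding gene that holds Snora74a and 1110038B12Rik one that holds Snord52. Thus 2 of these 10 genes hold an annotated snoRNA, as do 248 of the 16924 genes tested (1.47%). The 16924 include the listed host genes, which were left out of the 16814, so the shares are over unlike sets. 1110038B12Rik averaged 61.6 CPM in Gcn Arg and 72.5 CPM in Gcn Leu libraries, against 78.1 CPM in Gcn Unstarved libraries, and 71.4, 92.2 and 92.4 CPM in Wt Arg, Wt Leu and Wt Unstarved libraries. The libraries share their groups, so r describes a shared order of groups and carries no test.

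**Figure D5:**
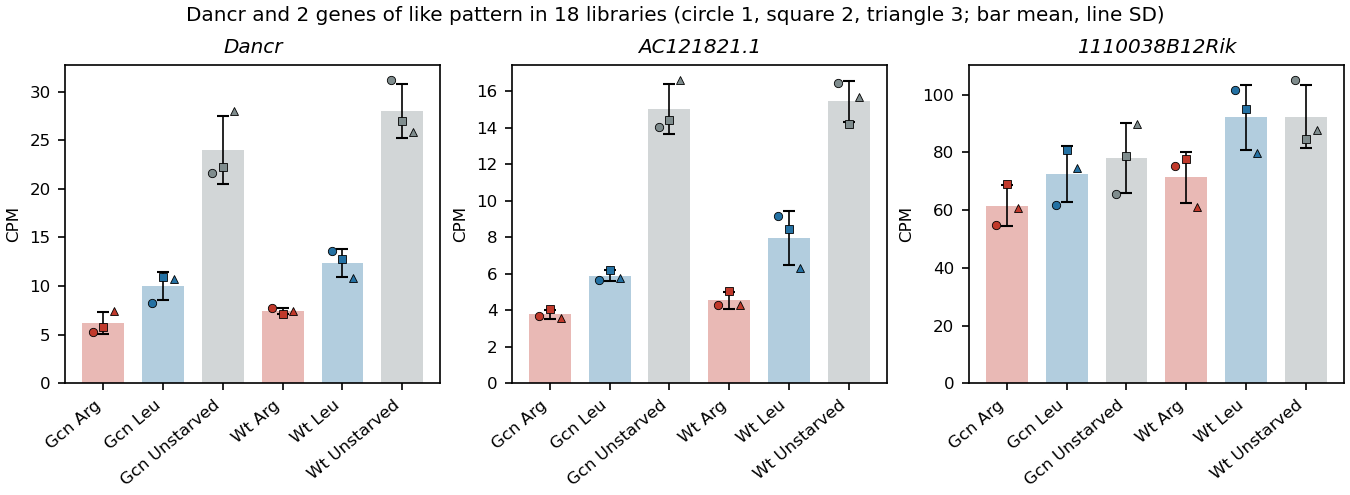
CPM of Dancr and of 2 genes of like pattern in the 18 libraries, with a bar for the mean, a line for the SD and a symbol for each library. Dancr and AC121821.1 are highest in the unstarved groups and lowest in the Arg groups, while 1110038B12Rik spans 54.9 to 105 CPM.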

How the data were processed

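RNA of 18 libraries was measured, 3 in each of 6 groups. Per the submitters' processing notes, reads were handled with bcl2fastq, FastQC 0.11.7, STAR 2.7.4a and HTSeq on GRCm38, and DESeq2, DESeq 1.30.1 and R 4.0.3 were also used. Neither the annotation release nor the strand setting is given in the sources used. The authors deposited raw whole-number counts per gene, 1 table a genotype, which were used as they stand. Their normalized tables were not used. Of 55471 gene IDs, 55230 matched a symbol in GENCODE vM21.

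Counts were fitted with edgeR 4.0.16 in R 4.3.3 (filterByExpr, TMM scaling, robust quasi-likelihood F test, Benjamini-Hochberg adjustment over all genes of a fit, called at an adjusted p under 0.05). The 9 libraries of a genotype were fitted together for comparisons within it, and all 18 for comparisons between genotypes. The SE was taken as |log2 fold change| over the root of F. CPM used TMM over all 18 libraries. Sequences came from GENCODE vM21 transcripts and RefSeq.

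The 9 genes and the other lists were chosen with earlier results of these data known. The text names all 9 genes, the called gene with the largest rise and fall of each other list, all 6 neighbour genes, and the 5 genes of highest r (log2 CPM, prior count 2) to Dancr and to the mean of the 9.

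Replicate numbers were taken to pair libraries where every same-numbered pair had correlated deviations over 0.1. The lowest was 0.18 for Gcn Arg with Gcn Unstarved, 0.20 for Gcn Leu with Gcn Unstarved, 0.31 for Gcn Leu with Gcn Arg and 0.17 for Wt Leu with Wt Arg. The pairing comes from the data, since the labels do not say what a number marks. Replicate pairs differed beyond counting noise (chi-square per degree of freedom 8.45 to 41.1). On simulated data with 15921 genes for Wt Arg against Wt Unstarved, 99.5% of genes changed by a log2 of 1 were called. Of the calls there, 5.24% were false. The share called was 100% for Gcn Arg against Gcn Unstarved and 95.5% for the arginine interaction. The simulation gave every gene the same spread and did not pair libraries, so it does not give the power for genes of larger spread. The alternatives were other scalings, DESeq2 1.42.0, no filter, other libraries in the fit, the replicate block and leaving out libraries.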

Additional observations from a re-analysis of the deposited data

Results flagged for a closer look

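Of the results on the 9 host genes, 3 stand out because the change with starvation differed between Gcn and Wt cells by the interaction term over all 18 libraries (edgeR, called in the fit over all genes). The term is built from the changes with starvation that are taken to have chosen the genes, so these values are a description and no independent support. Snhg1 differed by -1.01 ± 0.18 for arginine starvation. Snhg5 differed by -0.996 ± 0.139 for arginine starvation and by -0.68 ± 0.14 for leucine starvation. The Snhg5 level was lower in all 3 starved Gcn libraries than in all 3 starved Wt libraries for each amino acid, and the Snhg1 level was so for arginine.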

How the results depend on the processing

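Of the 32 values called among 81 (9 genes in 9 comparisons), 24 kept their call under every alternative run and 8 lost it under at least 1. No called value changed sign; 51 of 1161 recomputed values did so, all of values that were not called, the largest at 0.26. Calls were lost for Snhg5 between the unstarved genotypes (adjusted p up to 0.205), and for the others named in the report; the cause was not tested. Without a filter on low counts, 7 of 9 genes were called in Wt Leu against Wt Unstarved and 7 in Wt Leu against Wt Arg (4 each with the filter). In Gcn Leu against Gcn Unstarved 6 were called without the filter, and 6 without the 3 Gcn libraries numbered 1, against 4. DESeq2 called 6 in Wt Leu against Wt Unstarved, against 4. Between the unstarved genotypes 0 were called by DESeq2, 0 with only the compared libraries in the fit and 0 without the 3 Gcn libraries numbered 1, against 1 by edgeR; each time 1 gene had an unadjusted p under 0.05.

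With the replicate block, 8 genes were called in Gcn Arg against Gcn Unstarved (5 without it), 7 in Gcn Leu against Gcn Unstarved (4), 7 in Gcn Leu against Gcn Arg (5) and 8 in Wt Leu against Wt Arg (4). In the other comparisons not every same-numbered pair passed the limit of 0.1, which does not show that these libraries were unpaired. There the block gave 9 in Wt Arg against Wt Unstarved (6) and 7 in Wt Leu against Wt Unstarved (4). It gave 3 between the unstarved genotypes (1), 3 in the arginine interaction (2) and 2 in the leucine interaction (1). The lowest correlation was 0.096 and 0.049 in the 2 Wt comparisons. Between the unstarved genotypes it was -0.16, but the block was fitted within each genotype, so that value does not bear on it. Each library correlated best with its own number in 18 of 18 cases in Wt and 15 of 18 in Gcn. Over all genes the block gave 7602 against 4583 calls in Gcn Arg, 6651 against 3561 in Gcn Leu, 4362 against 1395 in Gcn Leu against Arg, 3328 against 1615 in Wt Leu against Arg, 2505 against 390 in the arginine and 1878 against 139 in the leucine interaction.

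Leaving out 1 library gave 4 to 5 genes in Gcn Arg against Gcn Unstarved, 4 in each case in Gcn Leu, 2 to 5 in Gcn Leu against Gcn Arg, 6 to 7 in Wt Arg, 4 to 5 in Wt Leu, 3 to 5 in Wt Leu against Wt Arg, 0 to 2 between the unstarved genotypes, 2 in each case in the arginine and 0 to 1 in the leucine interaction. Over all genes, the arginine interaction had 781 calls by DESeq2 and 777 without a filter, against 390, and the leucine one 377 and 353, against 139. With all 18 libraries in the fit, Wt Leu against Arg had 916 and Gcn Leu against Arg 2344.

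Scaling by library size alone moved the median log2 change of all genes to 0.11 in Gcn Arg, against -0.01 with TMM, and the calls there to 3449 higher and 1397 lower, beside 2339 and 2244. In Gcn Leu they were 2609 and 1066, beside 1920 and 1641, in Gcn Leu against Arg 610 and 781, beside 760 and 635, in the arginine interaction 298 and 162, beside 105 and 285, and in the leucine interaction 80 and 77, beside 26 and 113. It kept the 3 genotype differences of Snhg1 and Snhg5 called. The levels of Snhg1 in Wt Unstarved and Snhg5 in Gcn Arg moved by more than their SD under it, to 90.4 and 27.8 CPM. Over the alternatives, calls in Gcn Arg were 2 to 5 of 10 other non-coding hosts, 3 to 19 of 25 protein-coding hosts, 3 to 12 of 17 snoRNP proteins and 4 to 9 of 14 NMD factors, and in Wt Arg 5 to 7, 5 to 18, 6 to 14 and 6 to 9. In the Gcn starvation comparisons the SE of Gas5, Snhg8 and Zfas1 was 0.26 to 0.43 without the block and 0.067 to 0.13 with it.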
